A study of Homo sapiens with 6 samples.

Results

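METTL3 and METTL14 form the core of the enzyme complex that writes N6-methyladenosine (m6A) on mRNA, and the genes described here are those that moved the same way when either subunit was knocked down in K562 cells. K562, a long-established human cell line with erythroid features, was derived from a blast-crisis chronic myeloid leukemia. RNA-seq was performed on 6 libraries, with 2 from cells carrying a control shRNA (shCTR), 2 from cells with an shRNA against METTL3 (shMETTL3) and 2 from cells with METTL14 knockdown (shMETTL14). The shCTR and shMETTL3 cells were stable lines made with lentivirus, the control virus carrying a nonsense sequence, and how the shMETTL14 cells were made is not given in the sources used here. All groups were grown in the same medium and collected in logarithmic growth. The reads were counted per gene, and 17686 of 61661 identifiers passed the filter on low counts. A gene was placed in the common response when the mean of both knockdown effects against shCTR had an adjusted p under 0.05 in edgeR's quasi-likelihood test, and when its level in all 4 knockdown libraries lay above, or below, both shCTR libraries. This held for 1727 of the 17686 genes tested (9.76%), 859 of them higher (4.86%) and 868 lower (4.91%). Levels are given as CPM, read counts relative to the total of the library after TMM scaling, and n is 2 libraries for each group. Nothing in the labels says that the 2 libraries of a group came from separate cultures, so p-values measure the spread between these libraries, which may be technical.

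METTL3 holds the catalytic site of the m6A writer, METTL14 positions the RNA, and WTAP and its partners bring the complex to the transcript. The mark is placed mostly at the sequence GGACT and related words, often near stop codons, and is read by YTH domain proteins that steer the decay, translation or splicing of the RNA. In leukemia cells the writer is known for holding back differentiation. The enzymes FTO and ALKBH5 remove the mark.

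The METTL3 shRNA matched exactly 1 gene, METTL3 (ENSG00000165819). Its target of 21 bases is shown because it places the knockdown on the transcript. It lies on the minus strand of chromosome 14 (GRCh38, chr14:21501844-21501864), in the coding sequence, in exon 4 of the 11 exons of ENST00000298717.8. The METTL14 shRNA sequence was not analysed here.
METTL3 shRNA target: gccaaggaacaatccattgtt

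METTL3 measured 90.5 and 90.3 CPM in shCTR, 52.5 and 46.7 in shMETTL3 and 88.1 and 76.4 in shMETTL14 libraries. It was at about the control level in shMETTL14-1 and slightly lower in shMETTL14-2, and all 4 knockdown libraries lay below both shCTR libraries. After correction for GC content and length METTL3 was no longer in the common response, though its mean effect still passed the threshold. METTL14 measured 33.2 and 34.2 CPM in shCTR, 38.3 and 35.4 in shMETTL3 and 19.1 and 20.6 in shMETTL14 libraries. It was lower than shCTR in both shMETTL14 libraries and higher in both shMETTL3 libraries, so it did not meet the rule of the common response. Between the knockdowns, METTL3 differed by -0.73 (shMETTL3 minus shMETTL14, log2, adjusted p = 2.56e-06) and METTL14 by 0.89 (adjusted p = 7.81e-07), both by edgeR's quasi-likelihood test. Of the 9 genes of the writer complex, 1 rose in the common response and 1 fell: RBM15B, an RNA-binding adaptor of the complex, rose by 0.26 on the log2 scale (34.97 and 40.6 CPM in shCTR, 43.8 and 43.9 in shMETTL3 and 46.8 and 46.3 in shMETTL14 libraries, adjusted p = 0.0213 by edgeR), and METTL3 fell. WTAP had a log2 difference of -0.08 (adjusted p = 0.442). Of the 12 erasers and readers, the demethylase ALKBH5 rose, from 46.9 ± 4.10 CPM in shCTR to 55.7 ± 0.0181 in shMETTL3 and 52.6 ± 0.635 in shMETTL14 cells (SD, n = 2 each), with a log2 fold change of 0.21 (adjusted p = 0.0443 by edgeR). HNRNPC, a nuclear protein that binds RNA opened by m6A, fell by 0.19 on the log2 scale (adjusted p = 0.00951 by edgeR). This call was lost without shMETTL3-2 and with the 4 knockdown libraries as 1 group. FTO had a value of 0.08 (adjusted p = 0.541 by edgeR). The calls of RBM15B and ALKBH5 were both lost by DESeq2 (adjusted p = 0.0654 and 0.134), with no filter on low counts, without shCTR-1 (0.234 and 0.339 by edgeR), without any 1 of the knockdown libraries and with the 4 knockdown libraries as 1 group, and that of RBM15B also after correction for GC content and length.

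By edgeR, the mean of both knockdown effects passed the threshold for 2034 genes (11.5%), 1015 higher (5.74%) and 1019 lower (5.76%). Of these, 307 had at least 1 knockdown library that was not beyond both shCTR libraries and were not counted further, while 2946 other genes had all 4 knockdown libraries on one side without passing the test. The risen genes moved further than the fallen ones. Their median log2 fold change was 0.45, against -0.26 for the fallen genes, and 151 risen and 36 fallen genes reached an absolute value of at least 1. The risen genes were also lower in level, with a median of 20.4 CPM against 71.0 CPM. At least 10 reads in every library were present for 788 of 859 risen and 852 of 868 fallen genes. A gene of low level needs a larger fold change to pass the test, and it could pass the filter through the group where it was high. The part of level in this difference of size was not tested. Scaling by library size alone shifted the median of all genes by 0.04 on the log2 scale and turned the split to 1221 higher and 505 lower. Taken alone against the same shCTR libraries, shMETTL3 called 685 of the risen and 694 of the fallen genes (over all genes 16.5%, with 8.73% higher and 7.73% lower), and shMETTL14 called 394 and 353 (over all genes 6.69%, with 3.43% higher and 3.26% lower); these shares follow in part from the rule that chose the genes. The count was 891 without shMETTL14-1, 951 without shMETTL3-2, 1046 without shCTR-1 and 2706 without shCTR-2. The shCTR libraries differed from each other more than those of the other groups did, the chi-square between replicates averaging 5.03 a gene against 2.90 in shMETTL3 and 2.45 in shMETTL14.

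Among the risen genes with at least 10 reads in every library, the smallest p was that of ALAS2, which encodes the erythroid enzyme of the first step of heme synthesis. It measured 13.9 and 16.1 CPM in shCTR, 52.9 and 49.6 in shMETTL3 and 33.2 and 35.04 in shMETTL14 libraries. Both shMETTL3 libraries were higher than both shMETTL14 libraries, and all 4 were far above shCTR, for a log2 fold change of 1.48 (standard error 0.0839, 2.79-fold, adjusted p = 1.78e-09 by edgeR). SCIN, an actin-severing protein of the gelsolin family, measured 4.55 and 5.17 CPM in shCTR, 15.7 and 13.8 in shMETTL3 and 14.4 and 14.2 in shMETTL14 libraries. GAS2, a protein linked to growth arrest and the cytoskeleton, measured 12.8 and 12.6 CPM in shCTR, 27.9 and 28.8 in shMETTL3 and 29.7 and 31.2 in shMETTL14 libraries. Neither gene had an overlap between knockdown and control libraries, and the knockdowns lay together, with log2 fold changes of 1.58 and 1.21 (adjusted p = 1.37e-07 and 4.33e-08 by edgeR). The amino acid transporter SLC6A19 rose from 23.6 ± 2.96 CPM in shCTR to 50.7 ± 2.94 in shMETTL3 and 44.7 ± 1.91 in shMETTL14 cells (SD, n = 2 each). AQP3, a water and glycerol channel, went from 62.8 ± 3.59 to 98.97 ± 2.25 and 119 ± 1.07 CPM (SD, n = 2 each), and was the highest in the shMETTL14 libraries. GDF15, a secreted stress-response factor, measured 304 and 342 CPM in shCTR, 662 and 665 in shMETTL3 and 389.5 and 389 in shMETTL14 libraries. It was higher in every knockdown library, and its rise was mostly that of shMETTL3 cells.

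Among genes with a symbol and at least 10 reads in every library, the largest rises by fold were those of TMEM45A, GPC5, RAB3B, VEPH1, MCOLN3, C4B, CPXM1, SCIN, ZSWIM5 and AKAP12, with log2 fold changes from 1.98 down to 1.55. Apart from SCIN, none exceeded 3.49 CPM in an shCTR library. TMEM45A, a transmembrane protein, measured 0.658 and 0.522 CPM in shCTR, 4.43 and 3.79 in shMETTL3 and 1.22 and 1.48 in shMETTL14 libraries. AKAP12, a scaffold for protein kinase A, measured 3.49 and 2.09 CPM in shCTR, 14.7 and 15.2 in shMETTL3 and 3.82 and 5.15 in shMETTL14 libraries. In both, the shMETTL14 libraries lay much nearer to shCTR than the shMETTL3 libraries did. C4B has a near-identical neighbouring copy, so its value is uncertain. Of the same genes, the most abundant that rose were MT-CO1, H1-2, LAPTM4B, FSCN1 and GDF15. FSCN1, which bundles actin filaments, rose by 0.47 on the log2 scale from 414 ± 35.8 CPM in shCTR (SD, n = 2; adjusted p = 2.27e-05 by edgeR), and the linker histone H1-2 rose by 0.20 from 672 ± 27.1 CPM (adjusted p = 0.00967).

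Among the fallen genes, MS4A3, a membrane protein of myeloid progenitors, had the smallest p. It measured 53.1 and 52.4 CPM in shCTR, 19.4 and 17.7 in shMETTL3 and 27.5 and 27.95 in shMETTL14 libraries. The knockdown libraries held between 17.7 and 27.95 CPM, and none came near the control level, for a log2 fold change of -1.22 (standard error 0.0682, 0.430 of the control level, adjusted p = 1.78e-09 by edgeR). The noncoding RNA LINC00861 measured 229 and 177 CPM in shCTR, 89.6 and 83.9 in shMETTL3 and 115 and 101 in shMETTL14 libraries, and its shCTR libraries stood apart from each other as well as from the knockdowns. NTS, the precursor of the peptide neurotensin, measured 34.6 and 30.1 CPM in shCTR, 16.8 and 16.5 in shMETTL3 and 13.1 and 13.1 in shMETTL14 libraries. PICALM, an adaptor of clathrin-coated pits, measured 418 and 389 CPM in shCTR, 243 and 231 in shMETTL3 and 291 and 306 in shMETTL14 libraries. All 4 knockdown libraries were below shCTR for these genes, with log2 fold changes of -1.07, -1.13 and -0.60 (adjusted p = 5.13e-08, 7.01e-08 and 3.39e-07 by edgeR). SOD1P3, a processed copy of SOD1, fell by 1.10 on the log2 scale, and reads of the parent gene may have been counted there. The other large falls, of LGALS12, EN1, TMPRSS11F, HCLS1, PAGE1, FAM157B and NUDT4B, lay between -1.47 and -1.16, and FAM157B and NUDT4B have close copies and are uncertain. NUDT4B in shCTR was 2.63 and 6.95 CPM, so the lower shCTR library lay close to the knockdown libraries. Of the genes with at least 10 reads in every library, the most abundant that fell were EEF1A1, RPS2, RPL3, HNRNPA1 and RPS18, between -0.22 and -0.15.

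**Figure D1:**
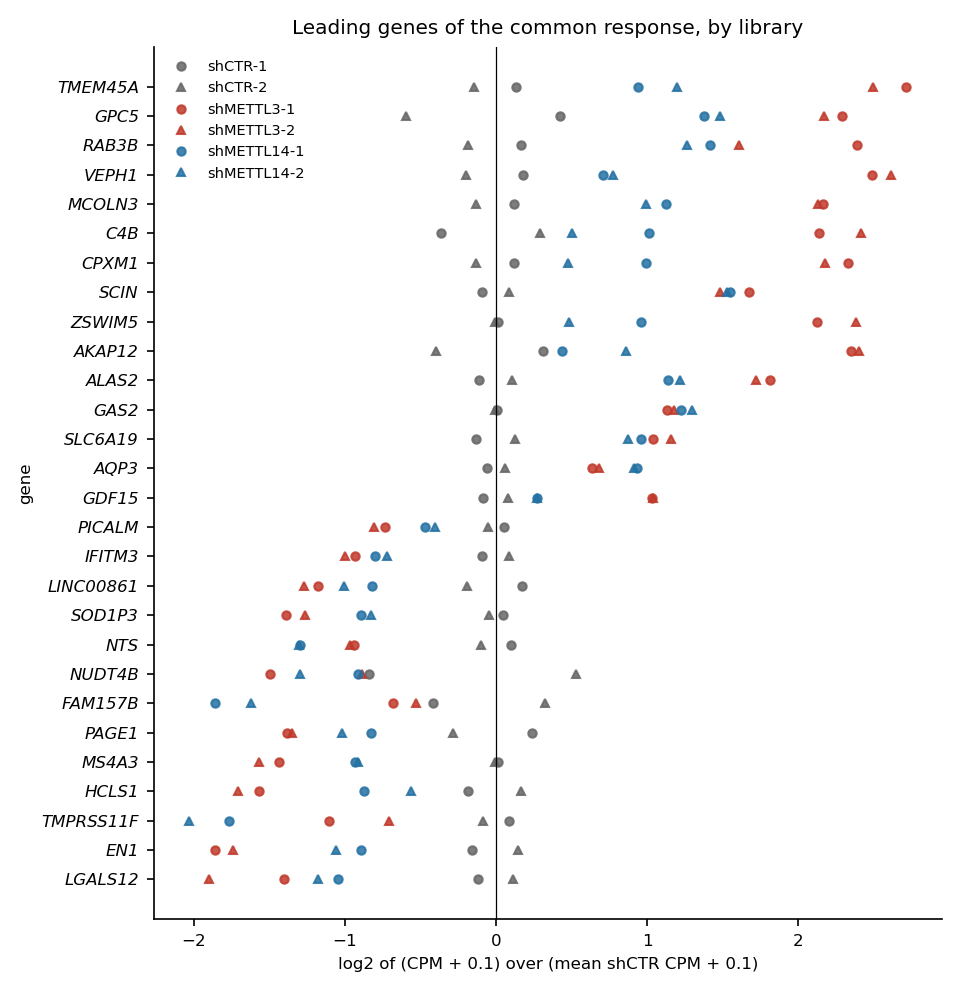
Leading genes of the common response (rows: the 10 largest rises and falls and the 6 rises and 6 falls with the smallest p), with the log2 ratio of each library's CPM, plus 0.1, to the mean of the shCTR libraries on the horizontal axis and 1 point per library. Red shMETTL3 and blue shMETTL14 points lie on one side of both grey shCTR points in every gene, by the rule that chose them. TMEM45A and AKAP12 show the shMETTL3 libraries far to the right of the shMETTL14 libraries, whereas the points of GAS2 and SCIN lie together.

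Treating the 4 knockdown libraries as 1 group against shCTR counts the difference between the knockdowns as spread and so favours genes at a similar level in both. Of the 17686 genes, 81 passed this test (0.458%), 49 higher and 32 lower, and all 81 were in the common response. They included ALAS2, AQP3, FSCN1, GAS2, NDRG1, SCIN, SLC6A19 and STEAP3 among the risen genes and EPCAM, IFITM3, LINC00861, MS4A3, NTS, PICALM, RUNX1, SOD1P3 and VCL among the fallen ones. NDRG1, a gene induced by hypoxia and differentiation, measured 11.6 and 13.4 CPM in shCTR, 22.3 and 22.3 in shMETTL3 and 25.8 and 23.3 in shMETTL14 libraries. STEAP3, the ferrireductase that reduces iron in endosomes, measured 30.01 and 31.9 CPM in shCTR, 39.7 and 42.9 in shMETTL3 and 41.98 and 46.7 in shMETTL14 libraries. RUNX1, a transcription factor of blood formation and megakaryocytes, measured 68.1 and 67.5 CPM in shCTR, 54.4 and 53.3 in shMETTL3 and 52.8 and 52.1 in shMETTL14 libraries. The knockdown levels were close for each gene, and the interval (95%) of the difference between the knockdowns was -0.33 to 0.06 for NDRG1, -0.26 to 0.05 for STEAP3 and -0.10 to 0.17 for RUNX1 on the log2 scale. VCL, the focal adhesion protein vinculin, fell by 0.37 on the log2 scale, from 438 ± 35.1 CPM in shCTR to 336 ± 7.37 in shMETTL3 and 342 ± 5.10 in shMETTL14 cells (SD, n = 2 each).

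Genes of the cytosolic ribosome had the highest share of fallen members of any list. Of 77 tested genes for ribosomal proteins, 44 fell and 0 rose in the common response, where 4.91% of all genes fell, and 1 of the 77 had a fold change above 0. The falls were small, with a median log2 fold change of -0.16 against 0.00 over all genes. RPL12 measured 1135 and 1165 CPM in shCTR, 894 and 925 in shMETTL3 and 940.5 and 1005 in shMETTL14 libraries. RPS13 measured 766 and 725 CPM in shCTR, 593 and 567 in shMETTL3 and 629 and 658 in shMETTL14 libraries. RPS25 measured 1247 and 1253 CPM in shCTR, 987 and 996 in shMETTL3 and 1065 and 1136 in shMETTL14 libraries. Both shMETTL3 libraries were the lowest in each of these genes, and the shMETTL14 libraries lay between them and shCTR, for log2 fold changes of -0.29, -0.29 and -0.26 (adjusted p = 4.35e-04, 6.69e-04 and 0.00103 by edgeR). In shMETTL3 cells the median of the group was -0.20 and in shMETTL14 cells -0.11. Alone against shCTR, shMETTL3 called 53 of the 77 lower (7.73% over all genes) and shMETTL14 11 (3.26%). The values of the 2 knockdowns share the shCTR libraries. Without shCTR-1 50 genes fell and without shCTR-2 34. Without shMETTL3-1 21 fell, without shMETTL3-2 21, without shMETTL14-1 22 and with library size alone 25, while with the 4 knockdown libraries as 1 group 0 genes passed the threshold. Ribosomal protein genes have many processed pseudogenes, which the counting could have let share reads.

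**Figure D2:**
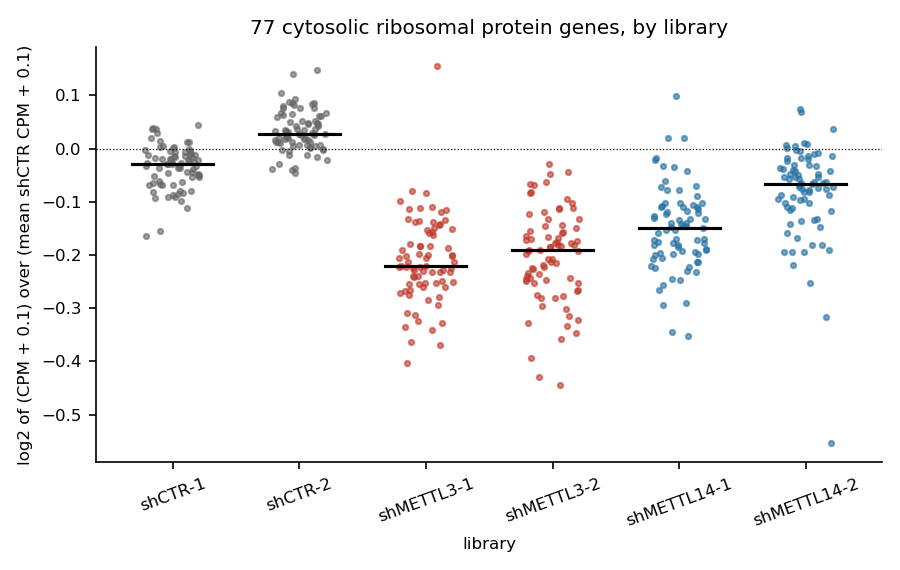
Cytosolic ribosomal protein genes, with the log2 ratio of each library's CPM, plus 0.1, to the mean of the shCTR libraries on the vertical axis, 1 point per gene and 1 column per library, and the median as a black line. The medians were -0.22 and -0.19 in shMETTL3, -0.15 and -0.067 in shMETTL14, and -0.028 and 0.028 in shCTR libraries.

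Some other genes of protein synthesis fell too. The list of translation factors was written after results of these data were seen, and 10 of its 37 tested genes fell and 1 rose. EEF1B2, a subunit of the elongation factor that delivers tRNA, fell by 0.30 on the log2 scale (adjusted p = 5.37e-04 by edgeR). EEF1A1, the elongation factor itself, measured 21151 and 21763 CPM in shCTR, 18888 and 18536 in shMETTL3 and 19461 and 20587 in shMETTL14 libraries. Its drop of 0.15 on the log2 scale (standard error 0.0386, adjusted p = 0.0167 by edgeR) was small, and no knockdown library reached the control level. EIF3C, a subunit of initiation factor 3 with a near-identical copy, was the gene that rose. Of 33 genes for hnRNP and SR splicing proteins, a list also written after results were seen, 7 fell and 0 rose, all 7 of them hnRNP genes. HNRNPA1 measured 3295 and 3334 CPM in shCTR, 2685 and 2695 in shMETTL3 and 2962 and 3052 in shMETTL14 libraries. The fall was mostly that of shMETTL3 cells, with a median over the 33 of -0.17 against -0.05 in shMETTL14 cells. Taken alone against shCTR, shMETTL3 called 16 of the 33 lower (7.73% over all genes) and shMETTL14 0 (3.26%). Between the knockdowns 8 of the 33 differed, all lower in shMETTL3 (5.49% over all genes). Among 33 ribosome biogenesis genes 4 fell and 0 rose: NPM1, DKC1, WDR12 and FBL, of which NPM1, a nucleolar chaperone, had the smallest p (log2 fold change -0.26, adjusted p = 6.43e-04 by edgeR). Of 31 proteasome genes 4 fell and of 73 mitochondrial ribosomal protein genes 12 fell and 1 rose, from lists written after results were seen. These counts moved with single libraries: without shMETTL3-2, 2 translation factors, 1 hnRNP gene, 2 ribosome biogenesis genes, 1 proteasome gene and 2 mitochondrial ribosomal protein genes were lower, and without shCTR-1, 7, 3, 5, 1 and 7.

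Of 28 tested genes of the antioxidant and NRF2 list, 10 fell and 0 rose, with a median of -0.08 over the list. The median was -0.15 in shMETTL3 and -0.07 in shMETTL14 cells. Alone against shCTR, shMETTL3 called 11 lower (7.73% over all genes) and 2 higher (8.73%). In shMETTL14 3 were called lower (3.26% over all genes) and 1 higher (3.43%). Between the knockdowns 4 were lower in shMETTL3 (5.49% over all genes) and 1 was higher (6.65%). NQO1, the quinone reductase that NRF2 induces, measured 98.3 and 98.8 CPM in shCTR, 81.3 and 86.4 in shMETTL3 and 81.1 and 76.97 in shMETTL14 libraries. Catalase (CAT), which breaks down hydrogen peroxide, measured 207 and 190.5 CPM in shCTR, 173 and 162 in shMETTL3 and 162 and 166 in shMETTL14 libraries. TXNRD1, which reduces thioredoxin, measured 382 and 353 CPM in shCTR, 319.6 and 304 in shMETTL3 and 315 and 312 in shMETTL14 libraries. These genes were lower in all 4 knockdown libraries by similar amounts, with log2 fold changes of -0.28, -0.26 and -0.23 (adjusted p = 0.00354, 0.00418 and 0.00596 by edgeR). The others that fell were TKT, GSR, PRDX1, SOD1, GCLC, TXN and SOD2, between -0.30 and -0.17. SOD1 and PRDX1 fell further in shMETTL3 cells, by -0.20 and -0.27 in shMETTL3 minus shMETTL14 (adjusted p = 0.0268 and 0.00497 by edgeR). GPX1 had 1 to 5 reads in a library and was not tested. Without shCTR-1 5 genes of the list fell, without shCTR-2 10 fell and 4 rose, and 5 fell with library size alone or without any 1 of the knockdown libraries (1 rose without shMETTL14-1). With the 4 knockdown libraries as 1 group 0 genes of the list passed the threshold.

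Nuclear genes of the respiratory chain fell in part, with 9 of 77 lower, 0 higher and a median of -0.09; 15 fell without shCTR-2, and 2 to 5 without a knockdown library. SDHD, a membrane anchor of complex II, measured 98.4 and 96.2 CPM in shCTR, 73.2 and 78.4 in shMETTL3 and 87.3 and 88.2 in shMETTL14 libraries, and UQCRC2, a core subunit of complex III, measured 301 and 281 CPM in shCTR, 259 and 248 in shMETTL3 and 248 and 246 in shMETTL14 libraries. SDHD was the lower in shMETTL3 libraries, and UQCRC2 was about equal in both knockdowns. Over the 77 genes the fall was mostly that of shMETTL3 cells, with a median of -0.14 against -0.04 in shMETTL14 cells. Taken alone against shCTR, shMETTL3 called 26 of them lower (7.73% over all genes) and shMETTL14 2 (3.26%). Between the knockdowns 14 of the 77 were lower in shMETTL3 (5.49% over all genes) and 1 was higher (6.65%). Of the 13 mitochondrially encoded genes 3 rose and 0 fell. MT-CYB, the cytochrome b of complex III, rose by 0.45 on the log2 scale (adjusted p = 5.82e-04 by edgeR), MT-CO1 of complex IV by 0.17, and MT-ND6 of complex I by 0.29; without shMETTL3-1 1 rose, and after correction for GC content and length 7 rose. Mitochondrial reads made up 3.36% to 3.37% of the shCTR libraries and 3.52% to 3.78% of the knockdown libraries. None of 14 regulators of mitochondrial biogenesis was in the common response. It held 9.76% of all genes, so a count of 0 in a list of 14 is near that share. The transcription factors NRF1 and TFAM had log2 differences of -0.07 and -0.04 (adjusted p = 0.683 and 0.723 by edgeR). PPARGC1A, which encodes the coactivator PGC-1α, had 2 to 7 reads in a library and was not tested.

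Lysosomal genes had the largest number of risen members of any list. The list was written after several lysosomal genes had been seen among the strongest rises, so its count is a description and no independent evidence. Of 80 tested genes, 21 rose and 3 fell, where 4.86% of all genes rose, and the median log2 fold change was 0.13. IDS, the iduronate sulfatase that degrades glycosaminoglycans, measured 13.6 and 12.5 CPM in shCTR, 27.6 and 24.7 in shMETTL3 and 23.00 and 21.8 in shMETTL14 libraries. SMPD1, the acid sphingomyelinase, measured 14.7 and 17.1 CPM in shCTR, 24.6 and 26.6 in shMETTL3 and 28.9 and 26.4 in shMETTL14 libraries. ARSB, another sulfatase, measured 6.07 and 6.53 CPM in shCTR, 11.7 and 12.3 in shMETTL3 and 10.9 and 11.8 in shMETTL14 libraries. The knockdown libraries lay well above shCTR in all of these genes, with log2 fold changes of 0.89, 0.74 and 0.89 (adjusted p = 4.00e-06, 2.60e-05 and 7.68e-05 by edgeR), and they were the only 3 of the 21 risen genes that passed the threshold with the 4 knockdown libraries as 1 group. The protease CTSL measured 53.4 and 56.6 CPM in shCTR, 70.5 and 66.7 in shMETTL3 and 102 and 93.8 in shMETTL14 libraries and was higher in the shMETTL14 libraries (shMETTL3 minus shMETTL14, -0.51 log2, adjusted p = 3.77e-05 by edgeR). Other proteases of the lysosome rose too: CTSZ by 0.42, CTSA by 0.43, TPP1 by 0.31, CTSF by 0.26 and CTSC by 0.19 on the log2 scale. The calcium channels MCOLN1 and MCOLN3 rose by 0.57 and 1.69, and RRAGD and FLCN, which couple lysosomes to mTORC1, rose by 0.49 and 0.26. Of the proton pump, ATP6V1B2, ATP6V0E1 and ATP6AP1 rose by 0.28, 0.25 and 0.22, while the catalytic subunit ATP6V1A fell by 0.19. MANBA and MITF, a transcription factor related to TFEB, were the other genes that fell (-0.26 and -0.44). Without shCTR-1, 14 genes of the list rose and 1 fell, without shMETTL14-1 13 and 1, and after correction for GC content and transcript length, 19 rose and 3 fell.

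TFEB, TFE3 and MITF bind a sequence of lysosomal promoters known as the CLEAR element. Its core, TCACGTGA, which reads the same on both strands, was searched in the 250 bases before the start of each gene (RefSeq, GRCh38.p14). It was found in 8 of the 55 lysosomal genes with a promoter in the table, 2 of them among the 15 of these that rose, and in 1.68% of the promoters of genes tested. The windows of the 2 risen genes that hold it are shown, with the core in capitals. A match is a description and not a binding site.
CTSA (chr20:45891298-45891327, plus strand): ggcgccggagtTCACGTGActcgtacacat
MCOLN1 (chr19:7522594-7522623, plus strand): ctctgggctaccgggTCACGTGAccgaggc

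Interferon-stimulated genes moved in both directions. Of 31 tested genes 9 rose and 1 fell, with a median of 0.16, and most were of low level. The median was 0.29 in shMETTL3 and 0.08 in shMETTL14 cells. Alone against shCTR, shMETTL3 called 9 higher (8.73% over all genes) and 3 lower (7.73%). In shMETTL14 4 were called higher (3.43% over all genes) and 2 lower (3.26%). Between the knockdowns 7 were higher in shMETTL3 (6.65% over all genes) and 1 was lower (5.49%). USP18, which curbs interferon signalling, measured 16.2 and 17.8 CPM in shCTR, 24.99 and 27.9 in shMETTL3 and 19.9 and 19.3 in shMETTL14 libraries. IFIT3, an antiviral protein of the IFIT complex, measured 2.88 and 2.98 CPM in shCTR, 7.38 and 7.43 in shMETTL3 and 3.92 and 3.01 in shMETTL14 libraries. RSAD2 (viperin) measured 1.37 and 1.15 CPM in shCTR, 3.16 and 1.89 in shMETTL3 and 2.70 and 3.16 in shMETTL14 libraries. IFIT3 was near the control level in shMETTL14-2, whereas RSAD2 was of a similar level in both knockdowns, and the log2 fold changes were 0.42, 0.79 and 1.11 (adjusted p = 0.00445, 0.00636 and 0.00917 by edgeR). SAMD9, IRF7, IFI6, SAMD9L, PARP14 and ISG20 were the other genes that rose, between 0.20 and 0.81. IFITM3, a membrane protein that blocks virus entry, moved the other way, at 54.3 and 61.5 CPM in shCTR, 30.2 and 28.9 in shMETTL3 and 33.2 and 35.04 in shMETTL14 libraries. Its fall of 0.87 on the log2 scale (standard error 0.0681, adjusted p = 1.37e-07 by edgeR) was larger in relation to its error than any rise of the list. ISG15 and IFIH1 had values of -0.02 and 0.15 that did not pass the threshold, and MX1, OAS1 and IFI44L had 3 or fewer reads in a library. Without shCTR-1, 3 genes of the list rose and 2 fell, without shCTR-2, 3 rose and 1 fell, and without shMETTL14-1, 5 rose and 2 fell. By DESeq2 4 rose and 1 fell.

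The interferon-stimulated response element, searched as the word GAAA repeated after any 2 bases on both strands of the same 250 bases, was found in 14 of the 25 interferon-stimulated genes with a promoter, in 5 of the 7 of these that rose, in IFITM3, and in 2.30% of the promoters of genes tested. The windows of the 5 risen genes and of the fallen IFITM3 are shown because the same element stood before genes that moved in opposite directions. Capitals mark the element or its reverse complement.
IFI6 (chr1:27672266-27672295, minus strand): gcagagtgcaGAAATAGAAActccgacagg
IFIT3 (chr10:89327865-89327894, plus strand): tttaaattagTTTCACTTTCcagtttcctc
ISG20 (chr15:88638937-88638966, plus strand): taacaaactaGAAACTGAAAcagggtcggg
PARP14 (chr3:122680800-122680829, plus strand): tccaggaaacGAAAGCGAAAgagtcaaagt
SAMD9 (chr7:93118096-93118125, minus strand): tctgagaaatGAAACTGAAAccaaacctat
IFITM3 (chr11:320876-320905, minus strand): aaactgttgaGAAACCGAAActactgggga

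Erythroid genes were split. Of 28 regulators and membrane proteins of red cells 5 rose and 2 fell, of 9 globin genes 1 rose, and of 13 genes of heme synthesis only ALAS2 was in the common response. KLF1, the main activator of the adult globin program, measured 128 and 156 CPM in shCTR, 182 and 184 in shMETTL3 and 173 and 170.0 in shMETTL14 libraries. EPOR, the erythropoietin receptor, measured 22.8 and 28.00 CPM in shCTR, 32.3 and 32.8 in shMETTL3 and 33.1 and 33.97 in shMETTL14 libraries. RHD, a carrier of the Rhesus antigen, measured 5.72 and 5.54 CPM in shCTR, 8.76 and 10.1 in shMETTL3 and 8.35 and 7.75 in shMETTL14 libraries. All were higher in the 4 knockdown libraries and at similar levels in both knockdowns, with log2 fold changes of 0.32, 0.38 and 0.63 (adjusted p = 0.00369, 0.00549 and 0.00419 by edgeR). RHD shares sequence with RHCE, so its value is uncertain. ZFPM1 (FOG1), the partner of GATA1, rose by 0.42 on the log2 scale and GYPC by 0.25. The embryonic globin HBE1 rose from 209 ± 15.9 CPM in shCTR to 407 ± 36.6 in shMETTL3 and 277 ± 2.00 in shMETTL14 cells (SD, n = 2 each). MYB, which is high in progenitors, measured 281 and 274 CPM in shCTR, 233 and 223 in shMETTL3 and 234 and 229 in shMETTL14 libraries and fell by 0.27 on the log2 scale (adjusted p = 0.00143 by edgeR). The other gene of the list that fell was CA1, a carbonic anhydrase of red cells, at 6.12 and 7.52 CPM in shCTR, 3.26 and 3.39 in shMETTL3 and 5.80 and 5.97 in shMETTL14 libraries, with a log2 fold change of -0.62 (adjusted p = 0.0103 by edgeR), the largest fall of the list. GATA1 and TAL1, master regulators of the lineage, had log2 differences of -0.00414 and -0.00136 (adjusted p = 0.974 and 0.991). Without shCTR-1 1 of these 28 genes rose and 3 fell. In bulk RNA, fewer cells of a type cannot be told apart from less RNA per cell.

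The GATA word AGATAA was found before 7 of the 20 erythroid regulators and membrane genes with a promoter, against 4.84% of the genes tested. Of the 7, 2 were among the 5 of these genes that rose, EPOR and RHD. Over all risen genes of the common response the share was 5.24%. The windows of EPOR, RHD and ALAS2, a risen gene of the heme list, are shown. Capitals mark the word or its reverse complement.
ALAS2 (chrX:55031087-55031116, minus strand): ctactttgggttTTATCTctagcaaggaag
EPOR (chr19:11384375-11384404, minus strand): cccgccaggcacTTATCTctacccaggctg
RHD (chr1:25272421-25272450, plus strand): ccttgcagcctgAGATAAggcctttggcgg

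Markers of neighbouring lineages moved in small numbers. Of 10 tested megakaryocyte genes TUBB1, the platelet tubulin, rose by 1.14 on the log2 scale, and RUNX1 and MEIS1 fell by 0.35 and 0.50. Of 12 tested myeloid and progenitor genes CD33 rose by 0.51, and MS4A3 and KIT, the receptor of stem cell factor, fell, with KIT at 14.3 and 11.6 CPM in shCTR, 5.85 and 7.08 in shMETTL3 and 8.50 and 9.39 in shMETTL14 libraries. The 13 K562 markers were detected, and KLF1, EPOR and HBE1 rose while KIT fell. Of the lymphocyte markers CD2 and MS4A1, of the monocyte and granulocyte markers CD14, MPO and ELANE, and of the epithelial markers KRT5, KRT14 and CDH1 had 3 or fewer reads in every library. The fibroblast marker COL1A1 rose from 2.99 and 2.19 CPM in shCTR libraries by 0.76 on the log2 scale. COL1A2, LUM and PDGFRA had 4 or fewer reads and COL3A1 8 or fewer in a library. Of the 3 epithelial markers tested, EPCAM fell by 0.49, and KRT8 and KRT18 were not in the common response. The median of the 3 was -0.37 in shMETTL3 and 0.03 in shMETTL14 cells. The summed level of the fibroblast markers tested was 2.77 to 3.44 CPM in shCTR, 6.08 to 6.52 in shMETTL3 and 3.71 to 3.77 in shMETTL14 libraries, and that of the epithelial markers 435 to 452, 336 to 349 and 453 to 476. The monocyte and granulocyte markers tested summed to 42.6 and 44.3 CPM in shCTR, 17.3 and 15.8 in shMETTL3 and 60.5 and 65.8 in shMETTL14 libraries, nearly all of it lysozyme (LYZ), which was lower in shMETTL3 and higher in shMETTL14 than in shCTR libraries. The lymphocyte markers tested summed to 126 to 148 CPM over the 6 libraries. Their part in the response was not tested.

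**Figure D3:**
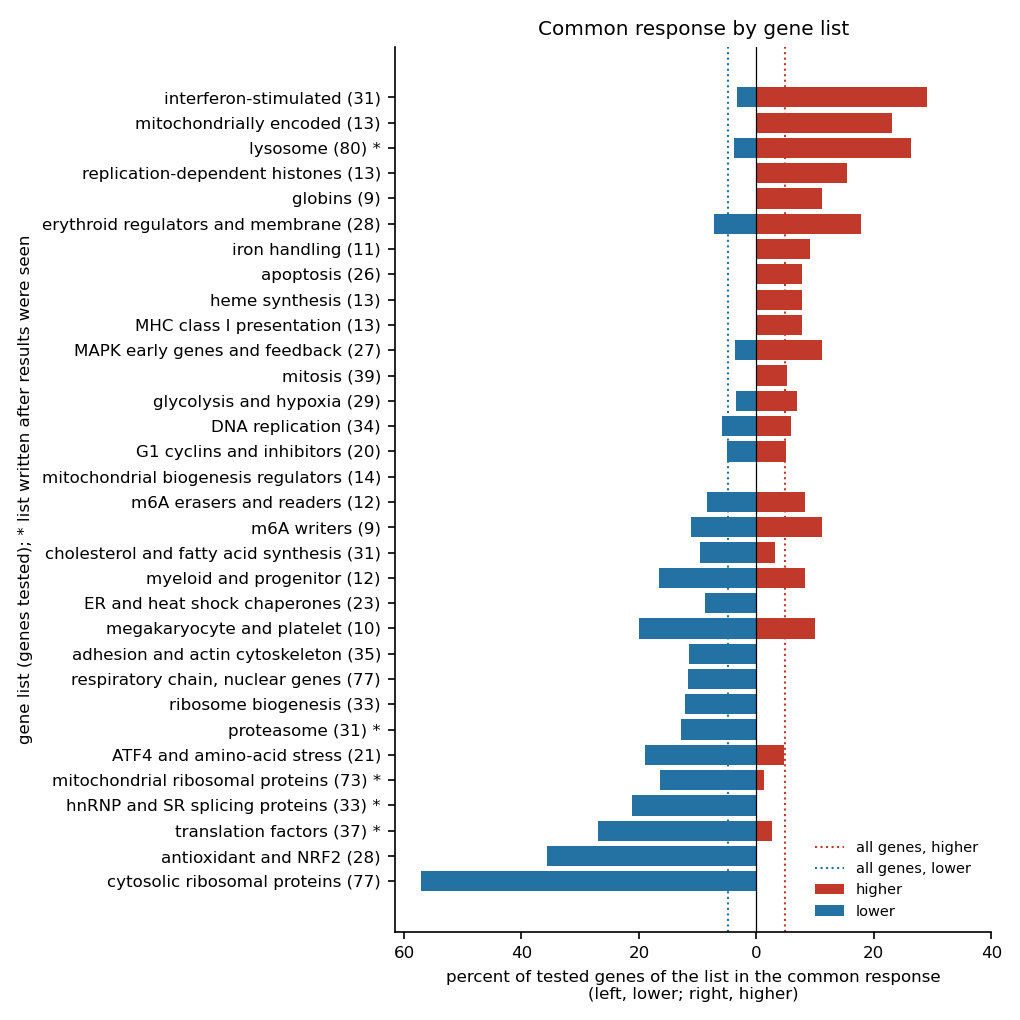
Share of the tested genes of each list, marker lists of other cell types and of K562 left out, that were in the common response, to the right where higher and to the left where lower, with the number of genes tested in parentheses and the share over all genes as dotted lines (4.86% higher, 4.91% lower). Cytosolic ribosomal proteins (44 of 77 lower) and antioxidant genes (10 of 28 lower) reach farthest to the left, and interferon-stimulated (9 of 31 higher) and lysosomal genes (21 of 80 higher) farthest to the right of the lists drawn. An asterisk marks a list written after results were seen.

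The remaining lists held few genes of the common response, in which 4.86% of all genes were higher and 4.91% lower. Shares near these, as in DNA replication (5.88% higher and 5.88% lower), say nothing particular about a list. Of 21 genes of the ATF4 and amino-acid stress list 4 fell and 1 rose: CBS, MTHFD2, CTH and DDIT4 fell, with MTHFD2, of mitochondrial folate metabolism, at -0.27, and CHAC1 rose. In cholesterol and fatty acid synthesis (31 genes) SQLE and HMGCS1 fell by 0.22 and 0.28 and DHCR7, of the last step, rose by 0.18. Of 34 DNA replication genes RRM2 and FEN1 rose (0.28 and 0.22) and ORC6 and POLE2 fell (-0.31 and -0.27). Of 39 mitosis genes CENPA and MKI67 rose (0.27 and 0.22), a share of 5.13% where 4.86% of all genes rose. Neither was called by DESeq2, with no filter on low counts or with the 4 knockdown libraries as 1 group. Of the 39, 26 had a fold change below 0, and their median was -0.04, or -0.09 without shCTR-2. Of 20 G1 cyclins and inhibitors, the inhibitor CDKN1A (p21) measured 33.6 and 37.4 CPM in shCTR, 71.9 and 73.3 in shMETTL3 and 37.9 and 41.8 in shMETTL14 libraries and rose by 0.60, and CDKN1C (p57) measured 81.1 and 86.4 CPM in shCTR, 71.01 and 68.8 in shMETTL3 and 56.4 and 56.7 in shMETTL14 libraries and fell by 0.41. The rise of CDKN1A was mostly that of shMETTL3 cells, and the fall of CDKN1C mostly that of shMETTL14 cells. Of 27 MAPK early genes and feedback inhibitors SPRY4, JUND and IER5 rose (0.61, 0.28 and 0.24) and FOS fell (-0.70, adjusted p = 0.0178 by edgeR). In apoptosis, the survival factor MCL1 and the protease CASP8 rose (0.26 and 0.34). VCL, CAV2, SDC2 and TLN1 were the 4 of 35 adhesion genes that fell, HERPUD1 and HSP90AB1 the 2 of 23 chaperones, and LDHA, NDRG1 and PFKP were the genes of glycolysis and hypoxia that moved (LDHA -0.15, PFKP 0.20). NLRC5, an activator of MHC class I genes, rose by 1.16, and the histone genes H1-2 and H2BC5 rose.

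The contrast of shMETTL3 with shMETTL14 uses no shCTR library. In it, 344 of the 1727 genes of the common response passed the threshold by edgeR (19.9%), where 2148 of all 17686 genes did (12.1%; 6.65% higher and 5.49% lower in shMETTL3). In 262 of the 344 the knockdown of METTL3 had the larger effect and in 82 that of METTL14. The share was 23.6% among risen and 16.2% among fallen genes. The larger METTL3 effects included VEPH1, AKAP12, TMEM45A and ZSWIM5, with log2 differences of 1.90, 1.73, 1.60 and 1.56 (shMETTL3 minus shMETTL14), and, at higher levels, CDKN1A and GDF15, with 0.86 and 0.77 (adjusted p = 2.18e-07 and 4.95e-08 by edgeR). A larger METTL14 effect was seen for TMPRSS11F and FAM157B among the fallen genes, with 1.07 and 1.15, and for CD33 and AQP3 among the risen ones, with -0.46 and -0.26. Of the 77 ribosomal protein genes 3 differed between the knockdowns.

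**Figure D4:**
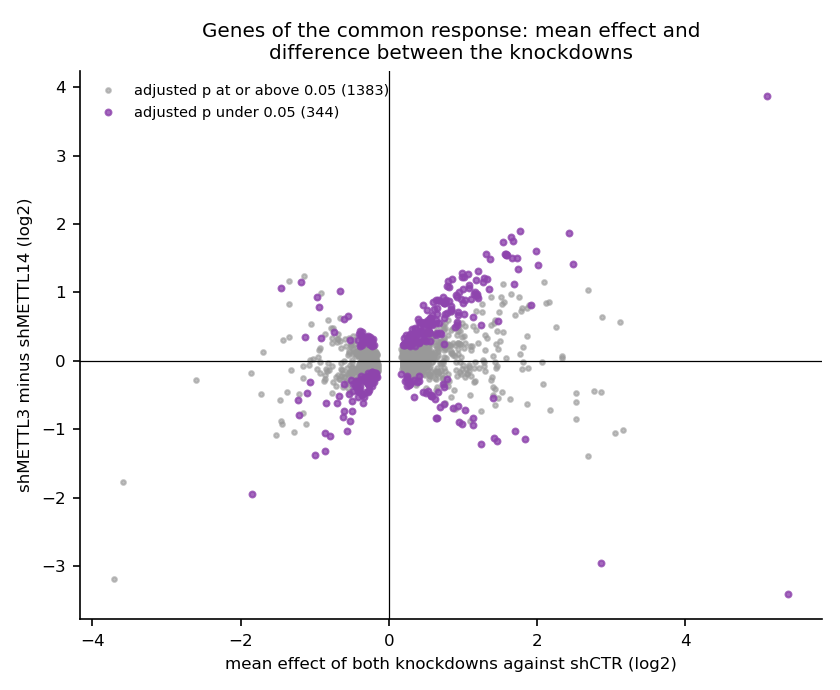
Mean effect of both knockdowns against shCTR (horizontal axis, log2) and difference between the knockdowns (vertical axis, shMETTL3 minus shMETTL14, log2) for the 1727 genes of the common response, 1 point per gene. Purple points are the 344 genes with an adjusted p under 0.05 for the difference. Of the purple points, 159 of 203 on the right lie above 0 and 103 of 141 on the left below 0, where the METTL3 effect was the larger.

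The fallen and risen genes differed in base composition. The median GC content of the transcript was 43.2% for the 741 fallen, 54.6% for the 738 risen and 49.3% for the other protein-coding genes tested. The genes were divided into 5 equal groups by GC content. In the group with the lowest GC content 10.5% fell and 2.19% rose, and in the group with the highest 0.998% fell and 9.14% rose. After a smooth trend on GC content and transcript length was removed from each library, 7.34% fell and 6.07% rose in the lowest group, and 7.58% and 5.67% in the highest. With that trend removed the common response held 2060 genes, and 1440 of the 1727 were still called in their direction. Under this setting 44 ribosomal protein genes were lower, 19 lysosomal genes higher and 3 lower, and 8 interferon-stimulated genes higher and 2 lower. The part of GC content in the response of each gene was not tested.

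**Figure D5:**
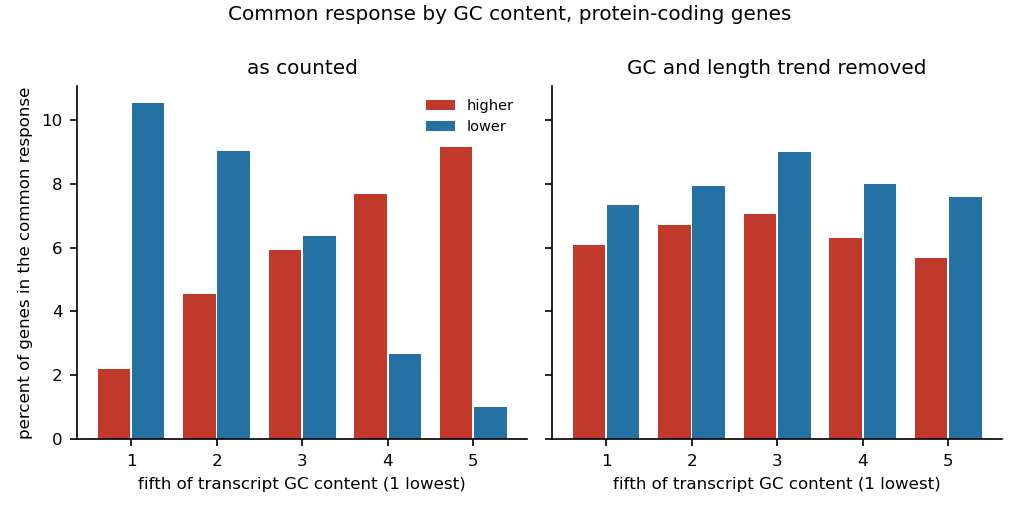
Percent of protein-coding genes in the common response (red higher, blue lower) in 5 equal groups by transcript GC content, for the counts as deposited (left) and after correction of every library for GC content and length (right). On the left the share of fallen genes drops from 10.5% to 0.998% while that of risen genes climbs from 2.19% to 9.14%, and on the right the shares stay between 5.67% and 8.98%.

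The word GGACT, the most frequent form of the m6A motif, was counted in the same transcripts. Its median density in the 3′ UTR was 0.82 per kb in the risen, 0.39 in the fallen and 0.62 in the other genes, and in the coding sequence 1.09, 0.76 and 0.97. GGACT is richer in GC than the average transcript. Within the middle group of GC content the density in the 3′ UTR was 0.83 per kb in risen, 0.38 in fallen and 0.70 in other genes, and with the trend on GC and length removed it was 0.79, 0.65 and 0.70. In the lowest group the values were 0.41, 0.42 and 0.46 as counted, and 0.39, 0.43 and 0.46 with the trend removed. In groups 2, 4 and 5 from the lowest, with the trend removed, they were 0.64, 0.44 and 0.55, then 1.04, 0.78 and 0.93, then 1.18, 0.77 and 0.82. Over all protein-coding genes with the trend removed they were 0.69, 0.52 and 0.62. The part of GC content in this difference was not tested. Which of these words carry m6A was not measured in these libraries.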

How the data were processed

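RNA-seq of polyA-enriched RNA was performed on 6 K562 libraries. Per the labels, the authors counted reads per gene on hg38 with HTSeq 0.6.1, and the deposited values are raw counts; the aligner, annotation and strand setting are not given in the sources used here. Totals were 19292574 to 20115304 reads per library, and 986 identifiers without a known gene held 0.635% to 0.703% of them. Genes passing filterByExpr (minimum count 10) were fitted in 1 model over the 3 groups with edgeR 4.0.16 (R 4.3.3; TMM, quasi-likelihood test), and p-values were adjusted by Benjamini-Hochberg over 17686 genes at 0.05. The contrast was the mean of shMETTL3 and shMETTL14 minus shCTR. The steps were tested on simulated data. Alternatives used DESeq2 1.42.0, other scalings and filters, a trend on GC content and transcript length (mgcv 1.9.3), a replicate block, and each library left out. Named genes were METTL3, METTL14, WTAP, FTO, ALKBH5, PPARGC1A, NRF1 and TFAM, the 10 largest rises and falls, the 6 of each with the smallest p and the 5 of each with the highest level (all with a symbol and at least 10 reads in every library), and up to 4 genes per list by p. Other named genes were chosen after their values were seen, and a gene that met the rule is not reported here. The members and all gene lists were chosen with earlier results of these data known, and 5 lists (translation factors, hnRNP and SR proteins, proteasome, mitochondrial ribosome, lysosome) after these results.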

Additional observations from a re-analysis of the deposited data

Results flagged for a closer look

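The effects of the METTL3 and METTL14 knockdowns differed for 39 of the 114 named genes by edgeR's quasi-likelihood test (Benjamini-Hochberg adjusted p under 0.05), where 12.1% of all genes did. All values are log2 differences, shMETTL3 minus shMETTL14, and rest on 2 libraries a group. METTL3 (-0.73) and METTL14 (0.89) are the targets of the shRNAs. Among the other genes, the level was higher in shMETTL3 cells for VEPH1 1.90, AKAP12 1.73, TMEM45A 1.60, ZSWIM5 1.56, CPXM1 1.55, C4B 1.54, FAM157B 1.15, MCOLN3 1.12, IFIT3 1.09, TMPRSS11F 1.07, NLRC5 1.01, CDKN1A 0.86, GPC5 0.82, GDF15 0.77, COL1A1 0.69, TUBB1 0.64, ALAS2 0.59, HBE1 0.56, USP18 0.43, RRM2 0.37, NTS 0.35, MCL1 0.33, CDKN1C 0.31, JUND 0.24, DDIT4 0.22. It was lower in shMETTL3 cells for MEIS1 -0.59, MS4A3 -0.58, SOD1P3 -0.47, CD33 -0.46, PICALM -0.33, LINC00861 -0.31, AQP3 -0.26, SDHD -0.21, MT-CO1 -0.19, TLN1 -0.18, RPS29 -0.18, HNRNPA1 -0.16. No cause of these differences was tested.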

How the results depend on the processing

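Of 1482 values for the named genes under the alternatives, 1211 kept their direction and their side of the threshold, 267 kept the direction and lost the call, and 4 turned. NRF1 was 0.025 without shCTR-1 (range with 1 library left out, -0.156 to 0.025), and TFAM was 0.0016 with library size alone, 0.0252 with the trend on GC content and length removed and 0.042 without shCTR-1 (range -0.118 to 0.042). Genes called in the mean contrast numbered 2034, against 1231 by DESeq2, 81 with the knockdown libraries as 1 group and 209 where the log2 fold change also reached 1 in size; higher genes 535, 49 and 165, and 654 with no filter on low counts; lower genes 632 with library size alone, 32 as 1 group and 44 at that fold. The common response held 1086, 81 and 187 genes under the same 3 settings, 471, 49 and 151 of them higher, and its lower genes were 505 with library size alone, 32 as 1 group and 36 at that fold. Genes of the common response that differed between the knockdowns were 344, against 220 by DESeq2, 541 with the trend removed and 62 at that fold, and could not be computed with the knockdowns as 1 group. With 1 library left out at a time, the counts ran from 971 to 2806 (called), 504 to 1339 (higher), 464 to 1467 (lower), 891 to 2706 (common), 463 to 1285 (common, higher), 428 to 1421 (common, lower) and 156 to 795 (differing). The cause of these changes was not tested, beyond the smaller number of libraries in the last. Libraries with the same replicate number deviated together in part between shCTR and shMETTL3 (correlation of deviations 0.222 over 11387 genes). Between shMETTL14 and shCTR or shMETTL3 they did not (-0.0247 and -0.0134). The main fit used no pairing. With a replicate block 2418 genes were called, 1964 common and 424 differing. Of the 1727 genes, 557 were still called in their direction with each library left out. With 2 libraries a group, small changes of genes with few reads were not detectable.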

Other observations

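Genes of at least 5 CPM were grouped by position into 140 windows of 20 Mb with 30 or more genes, whose median log2 fold changes ran from -0.16 to 0.10. The stretches given here were chosen after their values were seen. Over all 17686 genes, of any level, 4.86% were higher and 4.91% lower in the common response. With the trend on GC content and length removed, 944 of all genes tested were higher and 1116 lower. The share among genes of at least 5 CPM alone was not counted. On chromosome 11, between 80 and 140 Mb, 36 of 155 genes were lower in the common response and 4 higher, with a median log2 fold change of -0.13 over all 155 genes (-0.15 in shMETTL3 and -0.09 in shMETTL14 cells, which share the shCTR libraries). With the trend on GC content and length removed, 37 were lower and 5 higher, and the median was -0.10. On chromosome 4, between 60 and 80 Mb, 10 of 40 genes were lower and 1 higher, with a median of -0.14, and 9 were lower with a median of -0.10 with the trend removed. On chromosome 21, between 20 and 40 Mb, 11 of 52 genes were lower and 3 higher, with a median of -0.09, and 14 were lower with the trend removed. On chromosome 1, between 200 and 240 Mb, 20 of 156 genes were higher and 3 lower, with a median of 0.05, and 32 were higher and 3 lower with the trend removed. The highest median, 0.10, was that of chromosome 8 between 140 and 160 Mb, where 5 of 69 genes were higher and 1 lower, and it was -0.0062 with the trend removed.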
